A study of Mus musculus with 8 samples.

Results

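SWI/SNF ATPases and shared core subunits are 10 genes, *Smarca4*, *Smarca2*, *Smarcc1*, *Smarcc2*, *Smarcb1*, *Smarce1*, *Smarcd1*, *Smarcd2*, *Smarcd3* and *Actl6a*, which were taken by name from the 21058 genes of the deposited expression tables. Their symbols were found by Entrez identifier, each matched 1 row, and all 10 passed the filter on low counts. RNA had been sequenced from 4 *Arid1a* WT and 4 *Arid1a* cKO samples of pachytene spermatocytes, to learn how ARID1A influences transcription in pachynema. The *Arid1a* cKO genotype was *Arid1a* fl/fl with 1 copy of the *Stra8-Cre* transgene, which is expressed in spermatogonia, and the *Arid1a* WT males were *Arid1a* fl/fl or *Arid1a* fl/+ without it, so that the controls carry floxed alleles too. The floxed allele was kept on a CD1 background. Cells were separated by Sta-Put sedimentation at unit gravity from the pooled testes of adult males, 12 or more in number and all past 60 days of age. The study describes excision in these males as incomplete, with some spermatocytes that keep ARID1A.

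SWI/SNF complexes use the energy of ATP to slide or evict nucleosomes. Each complex holds either of the ATPases BRG1 (encoded by *Smarca4*) and BRM (encoded by *Smarca2*), which exclude each other. The ATPase is joined to a scaffold of SMARCC1 or SMARCC2 dimers, to 1 SMARCD protein of 3 and, in most forms, to SMARCB1 and SMARCE1. ACTL6A, an actin-related protein, sits on the ATPase and is also part of the INO80 and TIP60 complexes. ARID1A is not in this core: it defines the canonical BAF form, while PBAF and non-canonical BAF build on the same ATPases and scaffold with other subunits.

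Libraries held 15850961 to 22044507 estimated counts. *Arid1a* itself (Entrez 93760, chromosome 4) measured 105, 128, 121 and 98.8 CPM (read counts scaled for library size with TMM) in *Arid1a* WT and 76.4, 81.0, 82.9 and 78.3 CPM in *Arid1a* cKO. Its values did not overlap, and its log2 fold change was -0.51 ± 0.07 (SE, adjusted p = 2.31e-05). Here and below a gene's adjusted p is from edgeR's quasi-likelihood test, adjusted by Benjamini-Hochberg over all genes tested, and a log2 fold change is *Arid1a* cKO over *Arid1a* WT with its standard error (SE). The 9 marker genes listed for pachytene spermatocytes were expressed in both genotypes and summed to 11285 to 13056 CPM in *Arid1a* WT and 8948 to 9229 CPM in *Arid1a* cKO, with 6 called lower and 2 higher. Of these *Piwil1*, a piRNA-binding protein gene, had the lowest log2 fold change, -3.88. The 12 spermatid markers summed to 2070 to 2287 CPM in *Arid1a* WT and to 9612 to 9868 CPM in *Arid1a* cKO, and all 12 were called higher. The 8 Sertoli cell markers went the other way, from between 470 and 534 CPM to between 145 and 151 CPM with all 8 lower, and so did the 7 Leydig cell markers, from between 58.7 and 62.8 CPM to between 8.34 and 9.0 CPM with 6 lower. The 7 leptotene and zygotene markers summed to 390 to 447 CPM in *Arid1a* WT and 198 to 222 CPM in *Arid1a* cKO (4 higher, 3 lower), the fall lying mostly in *Hormad1* and *Spo11*. The 11 spermatogonial markers summed to 195 to 199.5 and 182 to 191 CPM (9 higher, 1 lower). The 1 that fell was *Id4* (mean 90.3 and 14.4 CPM), and the other 10 summed to 106 to 109 and 168 to 177 CPM. The 7 macrophage and blood markers summed to 4.62 to 6.04 and 10.2 to 11.5 CPM (5 higher, 1 lower), and the 3 peritubular markers to 8.56 to 12.3 and 14.4 to 16.1 CPM (2 higher). No marker on these 8 lists was at 0 in every library. The part of these other cells in the results below was not tested, and in bulk RNA fewer cells of a type and less RNA per cell cannot be told apart.

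**Figure D1:**
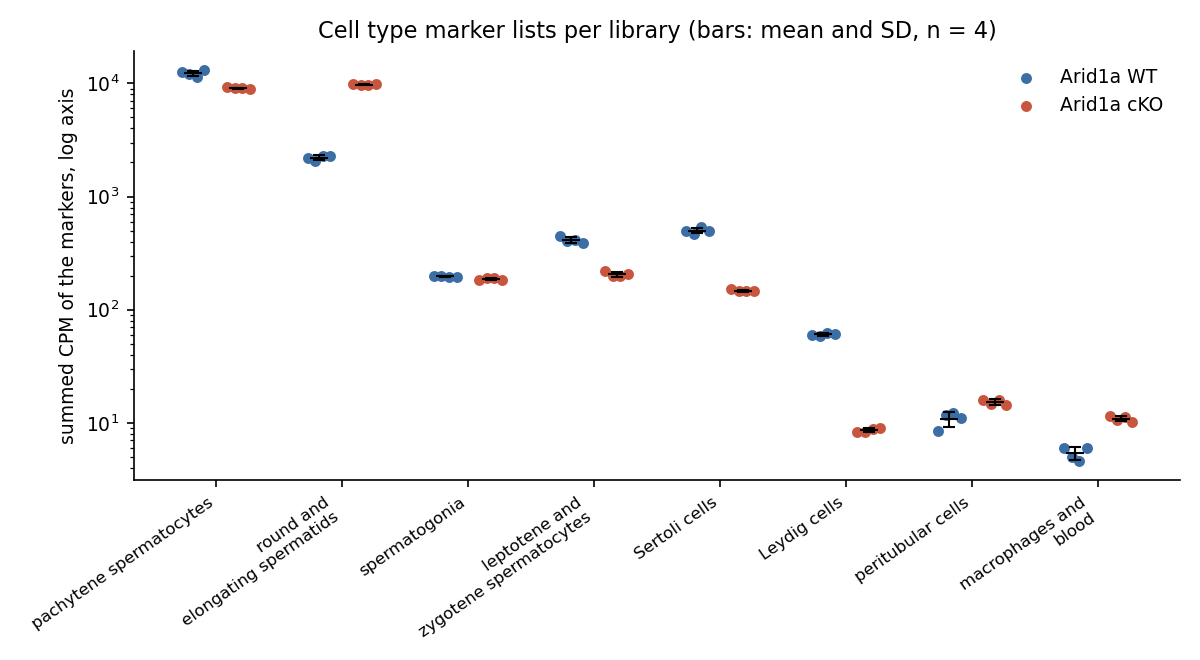
Summed CPM (log axis) of 8 lists of cell type marker genes in each library, blue for *Arid1a* WT and red for *Arid1a* cKO, with the mean and SD of 4 libraries as black bars. The spermatid markers sit between 2070 and 2287 CPM in *Arid1a* WT and between 9612 and 9868 CPM in *Arid1a* cKO, while the Sertoli and Leydig cell markers are lower in *Arid1a* cKO.

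Of the 10 core genes, 6 fell, 3 rose and 1, *Smarca2*, was not called at an adjusted p of 0.05 or less. The same rule called 74.0% of the 17643 genes tested, so 9 of 10 is close to what most genes of these libraries did. By direction the rule called 37.5% of all genes lower and 36.5% higher. Without TMM scaling 1 core gene was called higher and 7 lower. Leaving out 1 library gave 2 or 3 core genes called higher and 6 lower. The values of the genotypes did not overlap at 8 of the 10 genes, where 68.9% of all genes tested showed no overlap. *Smarca4*, *Smarcd1* and *Smarcb1* were called lower by 1 log2 unit or more, as were 16.0% of all genes (36.6% changed by as much in either direction), and no core gene was called higher by as much, as were 20.6% of all genes. *Smarcb1* stood at this limit, and in 4 of 11 alternatives and without *Arid1a* WT replicate 4 or *Arid1a* cKO replicate 1 it fell by less than 1 log2 unit, which leaves 2 such core genes. The median log2 fold change was -0.24 over the core genes and -0.02 over all genes tested. The median size of the change, regardless of direction, was 0.50 log2 units over the core genes and 0.76 over all genes tested.

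**Figure D2:**
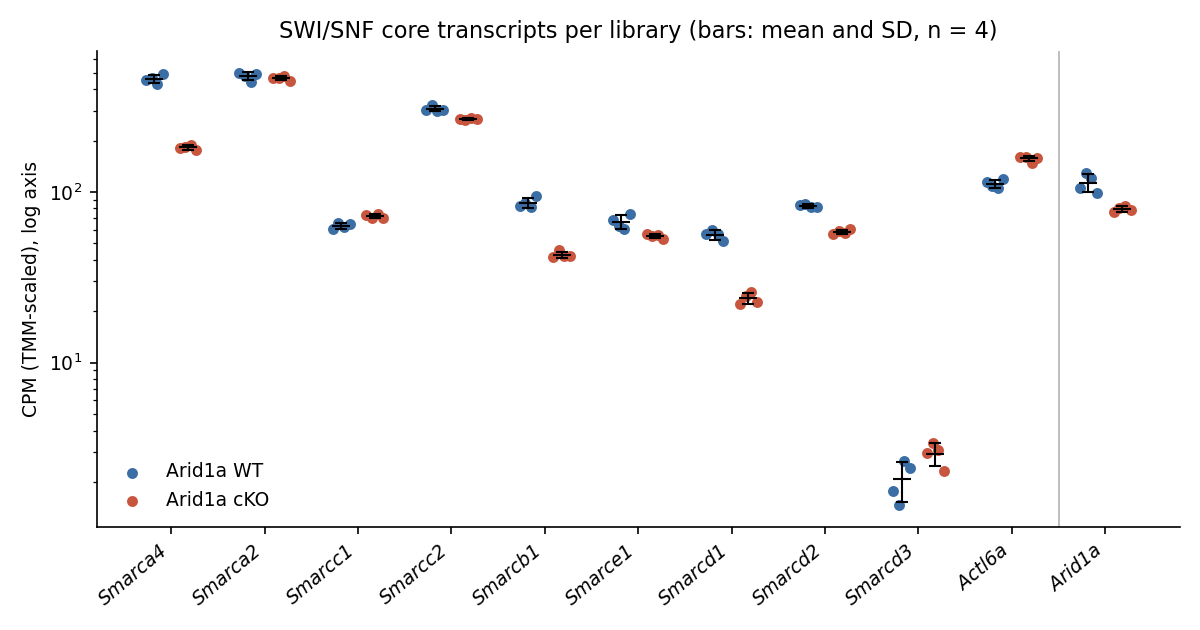
CPM (TMM-scaled, log axis) of the 10 core genes and *Arid1a* in each library, blue for *Arid1a* WT and red for *Arid1a* cKO, with the mean and SD of 4 libraries as black bars. The *Smarca4*, *Smarcb1* and *Smarcd1* points of the genotypes lie far apart, those of *Smarca2* and *Smarcd3* overlap, and *Actl6a* is higher in every *Arid1a* cKO library.

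*Smarca4* encodes BRG1, an ATPase whose loss from male germ cells is known to stop meiosis. The gene (Entrez 20586) spans 21616106 to 21704230 of chromosome 9 (GRCm38). *Smarca4* transcript abundance was 450, 465, 428 and 490 CPM in the *Arid1a* WT libraries and 181, 184, 189 and 176 CPM in the *Arid1a* cKO libraries. The lowest *Arid1a* WT library was thus far above the highest *Arid1a* cKO library, and the libraries of each genotype lay close together. The log2 fold change was -1.33 ± 0.05 (SE, adjusted p = 1.20e-11), which left 39.8% of the *Arid1a* WT level. No core gene fell by more, although 10.1% of all genes tested had a lower log2 fold change. Ranked by mean TPM (a level corrected for transcript length), *Smarca4* stood at the 91.8 percentile of the genes tested in *Arid1a* WT and at the 79.6 percentile in *Arid1a* cKO.

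*Smarca2* (Entrez 67155, chromosome 19, 26605073 to 26778321) encodes BRM, the alternative ATPase. It measured 495, 477, 441 and 494 CPM in *Arid1a* WT and 463, 468, 476 and 447 CPM in *Arid1a* cKO. The genotypes overlapped, with the lowest value of all in an *Arid1a* WT library. The log2 fold change was -0.04 ± 0.05 (SE, adjusted p = 0.478), with an approximate 95% interval from -0.14 to 0.06. On the log2(TPM + 1) scale, tested with limma, the difference was larger and was called (-0.13, adjusted p = 0.0307).

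The proportion of the ATPases therefore differed between the genotypes. As a share of the summed TPM of both ATPase genes, *Smarca4* made up 33.5%, 35.7%, 35.3% and 34.1% in the *Arid1a* WT libraries and 17.0%, 18.2%, 17.4% and 16.8% in the *Arid1a* cKO libraries. The mean share was 34.7% ± 1.03 (SD, n = 4) against 17.4% ± 0.629 (SD, n = 4), with no overlap (exact permutation test, two-sided p = 0.0286, the smallest that 4 libraries against 4 allow, and 0.0286 after adjustment over 5 paralog shares). *Smarca2* transcripts thus outnumbered *Smarca4* transcripts in all 8 libraries by this measure. Shares of other gene groups were not computed for comparison, and 68.9% of all genes tested had CPM values without overlap. Taken over reads rather than transcripts, the *Smarca4* share was higher, at 49.0% ± 0.947 (SD, n = 4) in *Arid1a* WT against 28.3% ± 0.132 (SD, n = 4) in *Arid1a* cKO.

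That gap between transcripts and reads comes with a difference in transcript length. Dividing the counts of a gene by its TPM gives the average length of the transcripts assigned to it, once the ratio is calibrated on genes with 1 annotated transcript. *Smarca2* transcripts averaged 2961 ± 118 bases (SD, n = 4) in *Arid1a* WT against 2859 ± 111 bases (SD, n = 4) in *Arid1a* cKO, while the longest protein-coding *Smarca2* transcript of GENCODE M21 has 5921 bases. The annotation gives *Smarca2* 46 transcripts, of which 27 are protein-coding and the shortest of those has 421 bases. *Smarca4* averaged 5233 ± 11.8 bases (SD, n = 4) in *Arid1a* WT against 5212 ± 27.6 bases (SD, n = 4) in *Arid1a* cKO, and each of its 4 annotated transcripts is protein-coding with at least 3800 bases. Much of the *Smarca2* signal was hence assigned to transcripts shorter than the full-length one in both genotypes, and how much of it encodes a whole ATPase was not measured. Average lengths did not overlap between genotypes at 1 of the 10 core genes, *Actl6a*, against 25.6% of the 10758 genes tested with more than 1 transcript and at least 32 counts in every library, the lowest count of a core gene (by more than 1 base).

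**Figure D3:**
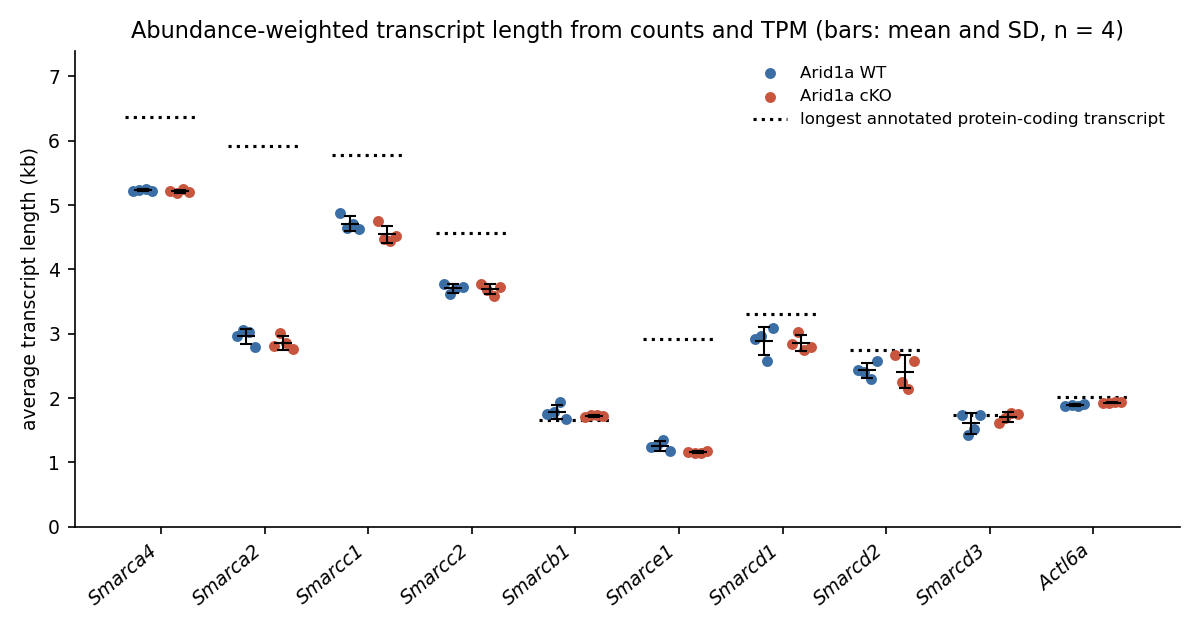
Average transcript length in kb, weighted by abundance, of the 10 core genes in each library (blue *Arid1a* WT, red *Arid1a* cKO, black bars the mean and SD of 4 libraries), with the longest protein-coding transcript of GENCODE M21 as a dotted line. *Smarca2* and *Smarce1* lie far below their dotted lines, and the genotypes overlap at every core gene but *Actl6a*.

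The sequences just upstream of 5 core genes are shown because *Smarca4*, *Smarcb1* and *Smarcd1* moved together while *Smarca2* and *Actl6a* did not. Each is the RefSeq promoter window of GRCm38.p6, with 250 bases before and 50 bases after the start of an annotated transcript, written 5′ to 3′ on the strand of the gene. That start is the outer end of the gene for *Smarcb1*, *Smarcd1* and *Actl6a*, and lies 63 bases inside it for *Smarca4* and 87 bases inside it for *Smarca2*. Capitals mark matches on either strand to GGGCGG (a GC box) and TGCGCA (the core of an NRF1 site), and in *Smarca2* also to CCGGAAG (an ETS site).
*Smarca4*, chr9:21615919-21616218, plus strand: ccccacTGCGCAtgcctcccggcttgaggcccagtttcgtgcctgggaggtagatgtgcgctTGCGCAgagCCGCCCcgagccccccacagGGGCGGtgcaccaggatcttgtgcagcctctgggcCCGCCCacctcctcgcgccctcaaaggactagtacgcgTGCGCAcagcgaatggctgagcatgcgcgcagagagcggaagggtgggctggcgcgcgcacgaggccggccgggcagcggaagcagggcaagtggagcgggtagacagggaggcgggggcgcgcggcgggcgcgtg
*Smarcb1*, chr10:75921565-75921864, minus strand: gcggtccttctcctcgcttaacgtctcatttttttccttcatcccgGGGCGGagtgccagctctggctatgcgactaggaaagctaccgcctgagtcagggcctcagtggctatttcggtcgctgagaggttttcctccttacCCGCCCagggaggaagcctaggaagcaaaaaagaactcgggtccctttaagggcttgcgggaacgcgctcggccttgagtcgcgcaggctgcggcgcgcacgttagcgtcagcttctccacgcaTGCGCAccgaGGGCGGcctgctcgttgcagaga
*Smarcd1*, chr15:99702037-99702336, plus strand: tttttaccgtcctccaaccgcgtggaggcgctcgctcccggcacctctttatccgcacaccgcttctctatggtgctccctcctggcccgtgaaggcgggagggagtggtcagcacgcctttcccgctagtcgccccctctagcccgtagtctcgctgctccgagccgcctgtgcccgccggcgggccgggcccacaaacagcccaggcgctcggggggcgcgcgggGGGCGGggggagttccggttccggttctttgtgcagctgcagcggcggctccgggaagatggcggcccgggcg
*Smarca2*, chr19:26604910-26605209, plus strand: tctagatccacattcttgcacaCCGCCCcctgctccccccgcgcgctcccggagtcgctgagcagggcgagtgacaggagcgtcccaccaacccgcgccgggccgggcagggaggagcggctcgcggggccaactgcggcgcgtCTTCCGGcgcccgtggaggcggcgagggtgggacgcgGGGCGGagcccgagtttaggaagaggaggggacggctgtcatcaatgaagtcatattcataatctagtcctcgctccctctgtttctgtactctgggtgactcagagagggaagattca
*Actl6a*, chr3:32708296-32708595, plus strand: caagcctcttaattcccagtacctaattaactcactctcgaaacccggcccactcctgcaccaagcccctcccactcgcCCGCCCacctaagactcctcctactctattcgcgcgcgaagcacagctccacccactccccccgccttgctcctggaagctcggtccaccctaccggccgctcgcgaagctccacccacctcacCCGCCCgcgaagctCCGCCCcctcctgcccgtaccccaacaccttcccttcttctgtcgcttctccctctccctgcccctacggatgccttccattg

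RefSeq windows were matched for 9 of the 10 core genes, all but *Smarce1*, with 1 window for each. The windows of *Smarcd2* and *Smarcd3* lie at starts 5366 and 22454 bases inside the gene, so for these the outer start was not read. All 9 held GGGCGG, which was present in 35.7% of 32851 windows of the same length from 27025 genes. TGCGCA was in 3 of the 9, those of *Smarca4* (3 matches), *Smarcb1* (1 match) and *Smarcc1* (1 match), and in 7.76% of all windows. CCGGAAG was in the windows of *Smarca2* and *Smarcc1* and in 8.86% of all windows. TGACGTCA (a cyclic AMP response element) and AACNGTT (a MYB site) were in none of the 9 and in 1.79% and 4.45% of all windows. The 5 windows shown hold no overlap between matches of different motifs. They contain 33 (*Smarca4*), 27 (*Smarcb1*), 35 (*Smarcd1*), 29 (*Smarca2*) and 21 (*Actl6a*) CpG dinucleotides, where the median of all windows is 7. The shares over all windows were not matched for CpG content or expression, and GGGCGG itself holds a CpG. A match is a description of these letters and not a bound site.

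*Smarcb1* encodes SMARCB1, also called SNF5, a tumour suppressor subunit that contacts the nucleosome. The gene (Entrez 20587) lies on chromosome 10 from 75896769 to 75921614. It measured 82.4, 86.5, 81.8 and 94.8 CPM in *Arid1a* WT and 41.4, 45.6, 42.3 and 42.0 CPM in *Arid1a* cKO, so that no *Arid1a* cKO library came near the *Arid1a* WT range. The log2 fold change was -1.01 ± 0.06 (SE, adjusted p = 8.29e-10), a 2.02-fold lower level. With each library left out in turn it ranged from -1.04 to -0.95, the smallest fall being without *Arid1a* WT replicate 4. *Smarcb1* transcripts averaged 1784 ± 110 bases (SD, n = 4) in *Arid1a* WT against 1721 ± 17.5 bases (SD, n = 4) in *Arid1a* cKO. The longest protein-coding *Smarcb1* transcript of GENCODE M21 has 1660 bases. Part of the signal was hence assigned to longer transcripts not annotated as protein-coding.

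*Smarce1* (Entrez 57376, chromosome 11, 99209047 to 99231017) encodes an HMG-box subunit, BAF57, that binds DNA. Its fall was smaller, from 68.8, 63.1, 60.9 and 74.4 CPM in *Arid1a* WT to 56.5, 55.0, 55.6 and 53.3 CPM in *Arid1a* cKO. All *Arid1a* cKO values were below the lowest *Arid1a* WT value, at a log2 fold change of -0.28 ± 0.06 (SE, adjusted p = 0.00105). *Smarce1* transcripts averaged 1254 ± 74.3 bases (SD, n = 4) in *Arid1a* WT against 1159 ± 17.2 bases (SD, n = 4) in *Arid1a* cKO. GENCODE M21 gives *Smarce1* 6 transcripts, of which only 1 is protein-coding, with 2919 bases. Much of the *Smarce1* signal was hence assigned to transcripts not annotated as protein-coding, in both genotypes. With offsets for average transcript length in edgeR the log2 fold change was -0.19 and was no longer called (adjusted p = 0.0852). The fall was larger, and called, without TMM scaling (-0.37) and with TPM rescaled to the listed genes (-0.43). Of the 31-base words in *Smarce1* transcripts, 16.2% also occur in other genes, most of them in *Gm8494*.

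The scaffold subunits SMARCC1 (BAF155) and SMARCC2 (BAF170) hold the complex together. *Smarcc2* (Entrez 68094, chromosome 10, 128459182 to 128490591), the more abundant of the pair, measured 302, 322, 300 and 303 CPM in *Arid1a* WT and 268, 265, 270 and 268 CPM in *Arid1a* cKO. The genotypes did not overlap, but the difference was small on this scale, with a log2 fold change of -0.19 ± 0.04 (SE, adjusted p = 0.00116). The size of the *Smarcc2* fall depended on the scale, at -0.33 on log2(TPM + 1) and -0.48 with TPM rescaled to the listed genes. *Smarcc1* (Entrez 20588, chromosome 9, 110132024 to 110240178) measured 60.7, 65.6, 62.2 and 65.0 CPM in *Arid1a* WT and 73.6, 70.1, 74.4 and 70.5 CPM in *Arid1a* cKO. It was higher in every *Arid1a* cKO library, at a log2 fold change of 0.19 ± 0.05 (SE, adjusted p = 0.00270), but the call was lost without TMM scaling (0.09) and the sign flipped to -0.05 when TPM were rescaled to the listed genes.

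As a share of the summed TPM of the pair, *Smarcc1* made up 13.4%, 13.6%, 13.9% and 14.7% in *Arid1a* WT and 17.8%, 17.8%, 18.1% and 17.7% in *Arid1a* cKO. This share does not depend on how libraries are scaled to each other. It rose from 13.9% ± 0.568 (SD, n = 4) to 17.8% ± 0.156 (SD, n = 4), with no overlap (exact permutation test, two-sided p = 0.0286, the smallest possible). *Smarcc2* stayed the major scaffold transcript in all 8 libraries. As for the ATPase share, no shares of other gene groups were computed for comparison.

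The SMARCD proteins (BAF60a, BAF60b and BAF60c) link the core to transcription factors, and a complex holds 1 of them. *Smarcd1* (Entrez 83797, chromosome 15, 99702287 to 99713995) measured 56.4, 60.2, 56.8 and 51.5 CPM in *Arid1a* WT and 22.0, 24.7, 25.8 and 22.6 CPM in *Arid1a* cKO. Its fall was close in size to that of *Smarca4*, with a log2 fold change of -1.24 ± 0.07 (SE, adjusted p = 3.89e-10) and 42.4% of the *Arid1a* WT level left. Of its 31-base words, 9.29% also occur in other genes on either strand. *Smarcd2* (Entrez 83796, chromosome 11, 106263171 to 106272998) fell less, from 83.5, 85.1, 81.5 and 81.3 CPM to 56.7, 59.3, 57.4 and 60.3 CPM. Its values did not overlap either, at a log2 fold change of -0.50 ± 0.05 (SE, adjusted p = 1.23e-07).

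*Smarcd3* (Entrez 66993, chromosome 5, 24592622 to 24624456), known for its role in heart and muscle, was the weakest of the core genes. It measured 1.78, 1.46, 2.66 and 2.41 CPM in *Arid1a* WT and 2.96, 3.37, 3.06 and 2.31 CPM in *Arid1a* cKO, and 1 *Arid1a* cKO library lay inside the *Arid1a* WT range. The log2 fold change was 0.50 ± 0.20 (SE, adjusted p = 0.0339). The call was lost without TMM scaling, on both TPM scales, with length offsets, and when *Arid1a* WT replicate 1 or 2 or *Arid1a* cKO replicate 1, 2 or 3 was left out (0.36 to 0.64 over all 8 libraries left out in turn). In GENCODE M21, 45.7% of its 31-base words also occur in other genes on either strand, most of them in *Chpf2*, so this count is uncertain.

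Among the 3 *Smarcd* genes, *Smarcd1* made up 35.2% ± 1.5 (SD, n = 4) of the summed TPM in *Arid1a* WT against 24.0% ± 1.39 (SD, n = 4) in *Arid1a* cKO. The *Smarcd2* share went up from 62.3% ± 1.64 (SD, n = 4) to 70.9% ± 1.52 (SD, n = 4), and the *Smarcd3* share from 2.46% ± 0.626 (SD, n = 4) to 5.18% ± 0.940 (SD, n = 4). None of the 3 shares overlapped between genotypes (by the exact permutation test, two-sided, each gave p = 0.0286, the smallest possible, and 0.0286 after adjustment over 5 shares). How often shares of other gene groups do the same was not measured, while 68.9% of all genes tested had CPM values without overlap. The shares of a group sum to 100%, so they are not independent of each other. A share can rise without a rise in level. Mean TPM fell from 30.0 to 11.5 for *Smarcd1* and from 52.7 to 34.2 for *Smarcd2*. *Smarcd3* TPM overlapped between genotypes, at 1.57 to 2.95 in *Arid1a* WT and 1.90 to 2.91 in *Arid1a* cKO.

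**Figure D4:**
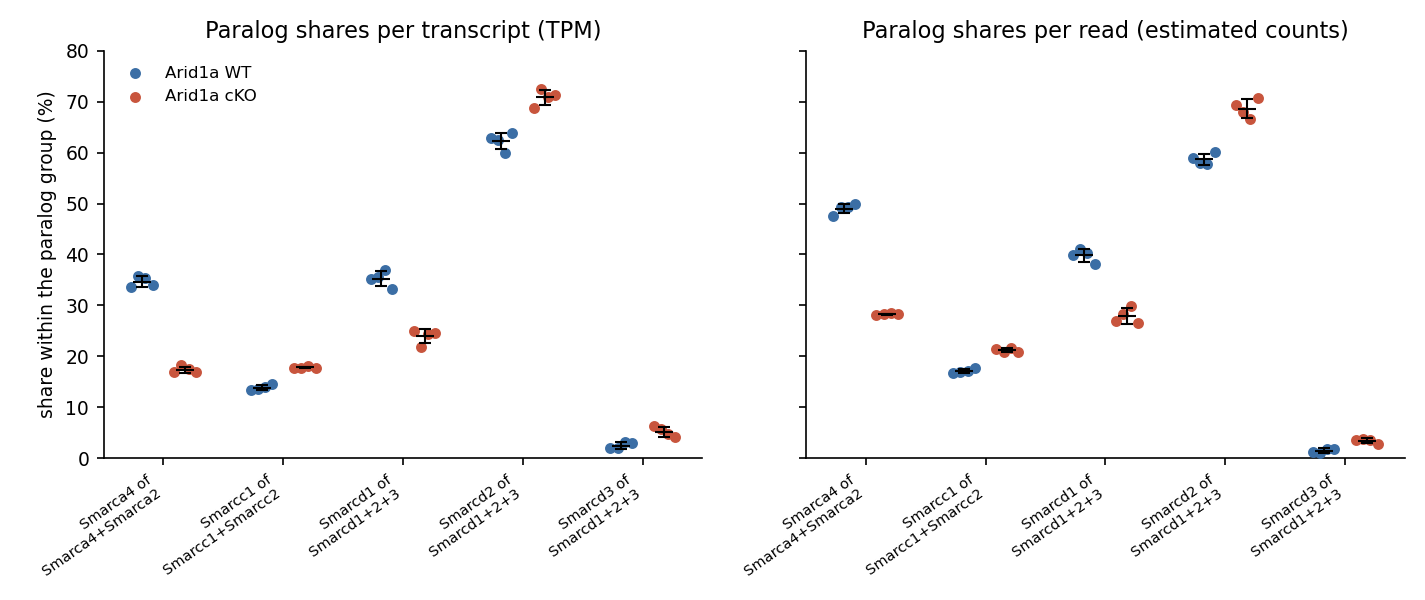
Share (%) of a gene within its paralog group in each library, from TPM (left) and from estimated counts (right), blue for *Arid1a* WT and red for *Arid1a* cKO, with the mean and SD of 4 libraries as black bars. *Smarca4* and *Smarcd1* lose share in *Arid1a* cKO on both scales, and *Smarcc1*, *Smarcd2* and *Smarcd3* gain it.

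*Actl6a* (Entrez 56456, chromosome 3, 32708546 to 32726973) was the core gene with the clearest rise. Its transcript abundance was 114, 108, 105 and 120 CPM in *Arid1a* WT and 161, 160, 149 and 159 CPM in *Arid1a* cKO. Every *Arid1a* cKO library was above every *Arid1a* WT library, and the log2 fold change was 0.49 ± 0.05 (SE, adjusted p = 7.98e-07), a 1.41-fold higher level. The rise was called in every alternative tried but its size depended on the scale, at 0.32 on log2(TPM + 1) and 0.17 with TPM rescaled to the listed genes. Of its 31-base words 11.9% also occur in other genes on either strand, most of them in *Mrpl47*.

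**Figure D5:**
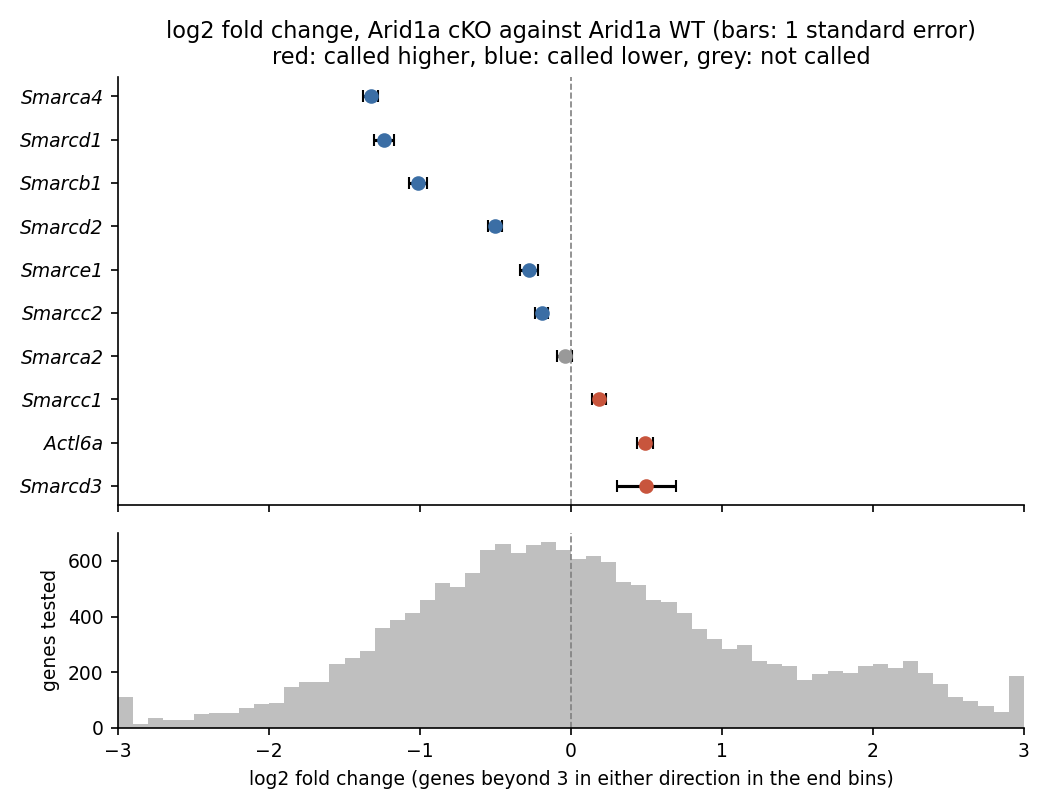
Log2 fold change of each core gene between *Arid1a* cKO and *Arid1a* WT with 1 standard error (top; blue called lower, red called higher, grey not called), above the number of all 17643 tested genes in bins of the same axis (bottom). The core genes run from -1.33 (*Smarca4*) to 0.50 (*Smarcd3*), inside the bulk of all genes.

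Levels per transcript put the core genes in a different order in the genotypes. In *Arid1a* WT the order by mean TPM was *Smarca2* (245), *Smarca4* (130), *Smarcc2* (125), *Actl6a* (92.8), *Smarce1* (88.4), *Smarcb1* (76.9), *Smarcd2* (52.7), *Smarcd1* (30.0), *Smarcc1* (20.0) and *Smarcd3* (2.09). In that order *Smarca4* overlapped *Smarcc2*, *Actl6a* overlapped *Smarce1*, and *Smarce1* overlapped *Smarcb1*. In *Arid1a* cKO it was *Smarca2* (224), *Actl6a* (116), *Smarcc2* (98.8), *Smarce1* (72.5), *Smarca4* (47.1), *Smarcb1* (35.9), *Smarcd2* (34.2), *Smarcc1* (21.4), *Smarcd1* (11.5) and *Smarcd3* (2.48), with overlap between *Smarcb1* and *Smarcd2*. *Smarca4* moved from the second place to the fifth, and *Smarcc1* and *Smarcd1* changed places.

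Of 21 other SWI/SNF subunit genes, all of which were tested, 6 were called higher, 8 lower (*Arid1a* itself among these 8) and 7 were not called. That is 66.7% called, against 74.0% of all genes tested. *Bcl7b*, which encodes a small accessory subunit, fell the most, from 68.1 to 80.4 CPM across the *Arid1a* WT libraries to 21.5 to 22.2 CPM across the *Arid1a* cKO libraries (log2 fold change -1.81 ± 0.06 SE, adjusted p = 2.17e-12). The PBAF subunits *Brd7* (log2 fold change -0.94) and *Arid2* (-0.77) fell too. *Dpf3*, a PHD finger subunit of BAF, rose the most, from 9.08 to 11.2 CPM across the *Arid1a* WT libraries to 56.0 to 58.7 CPM across the *Arid1a* cKO libraries (log2 fold change 2.49 ± 0.07 SE, adjusted p = 1.75e-13). *Bcl7c* and the non-canonical BAF subunit *Bicra* rose by 1.09 and 0.83, and *Bicra* was not called with TPM rescaled to the listed genes.

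The genes of these complexes with profiles most like those of the ATPases were found by the root mean square difference of centred log2 CPM over the 8 libraries, among 30 genes. For *Smarca4* they were *Smarcd1* (0.11), *Smarcb1* (0.17) and *Brd7* (0.21). For *Smarca2* they were *Ss18* (0.06), *Smarcc2* (0.10) and *Dpf2* (0.10). The *Smarca4* profile is mostly the difference between genotypes, so likeness to it is mainly likeness of fold change. Of 17 ATPase genes of other remodeler families, 10 were called lower, 5 higher and 2 were not called, with a median log2 fold change of -0.55. That is 88.2% called, against 74.0% of all genes tested with a median of -0.02.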

How the data were processed

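RNA-seq libraries of 4 *Arid1a* WT and 4 *Arid1a* cKO samples were compared, grouped and numbered by their labels. The authors quantified reads with Salmon and tximport (mm10, Entrez genes). The values the authors deposited are estimated counts and TPM of 21058 genes. The TPM of the deposited genes make up 78.1% to 81.1% of the full TPM scale in *Arid1a* WT and 88.1% to 88.6% in *Arid1a* cKO. The authors' own table of fold changes and p-values was not used. Counts were rounded. Genes summing to 10 counts or more entered edgeR 4.0.16 (R 4.3.3; TMM, glmQLFit and glmQLFTest on genotype alone), where calls had an adjusted p (Benjamini-Hochberg) of at most 0.05. Standard errors are the fold change over the square root of F. Of 21058 genes, 21036 had a RefSeq symbol (GRCm38.p6, the build of mm10), which also gave coordinates.

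Average transcript length was counts over TPM, calibrated in each library on 853 to 950 genes with 1 GENCODE M21 transcript, of which 811 to 895 fell within 1 base of the line. Alternatives were DESeq2 1.42.0, its size factors, no TMM, 3 filters, a replicate block, length offsets, an adjusted p of 0.01, limma 3.58.1 on log2(TPM + 1) or with 0.1 in place of 1, and each library left out. TPM rescaled to the listed genes was added after the data were seen. Genes named were the core genes, *Arid1a*, the 3 other subunits with the largest called rise and fall at an average log2 CPM of at least 1, and the nearest profiles. The marker genes *Piwil1*, *Hormad1*, *Spo11* and *Id4* were named after their values were seen. The core genes and lists were chosen with earlier results of these data known. The labels call the replicates biological, but the number of separate purifications is not given in the sources used here, so p-values measure the spread between these libraries. ATAC-seq and CUT&RUN were not analysed here.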

Additional observations from a re-analysis of the deposited data

Results flagged for a closer look

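Dixon's test at its 95% critical value was used to find single libraries apart from the rest of their genotype in the CPM and average transcript length of the core genes and *Arid1a* and in the 5 paralog shares. It found 3 among 54 sets of 4 libraries, and about 2.7 would arise by chance. *Smarcc2* in *Arid1a* WT had replicate 2 high (gap over range 0.875), at 322 CPM against 303 CPM or less in the others. *Actl6a* in *Arid1a* cKO had replicate 3 low (0.870), at 149 CPM against 159 to 161 CPM. The *Smarcc1* share of its pair in *Arid1a* cKO was high in replicate 3 (0.840), at 18.1% against 17.7% to 17.8%.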

How the results depend on the processing

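*Smarca4*, *Smarcb1*, *Smarcd1*, *Smarcd2*, *Smarcc2* and *Actl6a* kept their direction and call under all 11 alternatives of the fit and with each library left out, and *Smarca4* ranged from -1.60 to -1.28. *Smarca2* was called lower without TMM (-0.14), on log2(TPM + 1) and log2(TPM + 0.1) (-0.13 each) and with TPM rescaled to the listed genes (-0.28). *Smarcc1* was not called without TMM (0.0885), on the TPM scales (0.0947 and 0.0989) or with rescaled TPM, where its sign turned (-0.0502). *Smarcd3* was not called without TMM (0.40), on the TPM scales (0.18 and 0.26), with length offsets (0.36) or with rescaled TPM (0.0850), and leaving out a library gave 0.36 to 0.64. *Smarce1* was not called with length offsets (-0.19). The number of core genes called higher was 1 without TMM, on each TPM scale and with rescaled TPM, and the number called lower stayed between 5 and 7. At an adjusted p of 0.01, 2 core genes were called higher, without *Smarcd3*, and 6 lower. The median of all genes moved to -0.12 without TMM and to -0.13 with rescaled TPM, from -0.02, and the latter called 4854 genes higher and 7624 lower in place of 6435 and 6613. The paralog shares kept their direction on counts and with each library left out. Their p was the smallest possible each time and so says nothing of stability. Same-numbered libraries come from different animals and their deviations correlated by -0.03 to 0.04. These correlations cannot tell whether same-numbered libraries shared a purification, which the sources used here do not give. With the replicate number as a block, *Smarca4* had a log2 fold change of -1.33, 3 core genes were called higher and 6 lower, and no call changed. *Smarcd3* had the fewest counts of the core genes, at 1.46 to 3.37 CPM, and its call rests on the least depth.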

Other observations

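The average transcript length of *Arid1a* was 7110 to 7570 bases in the *Arid1a* WT libraries and 6670 to 7007 bases in the *Arid1a* cKO libraries, with no overlap. The average lengths of *Actl6a* were 1872 to 1915 bases in *Arid1a* WT and 1919 to 1940 bases in *Arid1a* cKO. No test was run on these lengths.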
